A study of Rattus norvegicus with 18 samples.

Results

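The genes described are the S100 genes of the chromosome 2 cluster that were picked for the kidney, S100a1, S100a4, S100a6, S100a8, S100a9, S100a10, S100a11 and S100a13, together with Anxa2, which encodes annexin A2, the partner of the S100a10 protein. Every probe set annotated to 1 of these 9 genes alone was taken, which gave 10 of the 31042 probe sets used, 1 per gene and 2 for Anxa2. The 9 genes are among 14217 that the annotation names alone. The genes were picked because S100a10 had been seen to differ between the strains in these same arrays, so the strain differences below are descriptions without p-values, and counts of members past a threshold are given only beside the share of all probe sets. The question was whether the difference was limited to S100a10.

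S100 proteins are small calcium-binding proteins that work as dimers, change shape when calcium rises, and then bind other proteins inside the cell. Most of their genes lie side by side in a cluster. S100a10 is the exception in having lost calcium binding, and it forms a stable complex with annexin A2 at the inner face of the plasma membrane. That complex is known for holding plasminogen and its activators at the cell surface and for bringing channels to the membrane, among them the calcium channels of the distal nephron. S100a8 and S100a9 together form calprotectin, a protein of neutrophils and monocytes.

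Whole kidneys of 18 rats were measured, each on 1 Affymetrix Rat Genome 230 2.0 array. Of these, 9 were Dahl S (SS/Jr, the Dahl salt-sensitive strain, which develops hypertension and kidney damage) and 9 were S.SHR(2), a single congenic strain that the labels call renal protective and trace to 2 parents, SS/Jr and SHR/NHsd. The design text names male rats of 4, 12 and 20 weeks with 3 per strain at each age, but a label gives the age of 2 Dahl S rats only, 4 and 12 weeks, on a diet with 0.3% NaCl, and no rat was placed in an age group. No treatment is named for any rat. A congenic carries a donor segment with many genes, so these data alone cannot tie a strain difference to 1 gene of it.

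The arrays were deposited in 3 runs of 6, each with 3 rats of either strain, which are called deposit blocks here. They carry no label and are described only as the order of deposit. Arrays resembled each other more within a block (median correlation 0.979 across probe sets) than between the first and second blocks (0.968) or between the third and the others (0.961). The labelled tissue was borne out by its markers: all 4 proximal tubule genes on the list passed the filter on dim probe sets, among them Lrp2 at 4789 ± 425 units (SD, n = 9) in Dahl S. In whole kidney RNA, fewer cells of a type and less RNA per cell cannot be told apart. Values are deposited intensities in arbitrary units, and differences are S.SHR(2) minus Dahl S on the log2(intensity + 16) scale after quantile normalization, with the standard error of the limma fit. Whether the strain ranges of a gene overlapped was read from the deposited intensities unless stated, and normalization can change it where the gap is small. A probe set's intensity depends on its own probes, so levels are not compared between genes.

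Of the 10 probe sets, 7 passed the filter, 1 for each of S100a1, S100a4, S100a6, S100a10, S100a11, S100a13 and Anxa2. The probe sets of S100a8 and S100a9 and the second probe set of Anxa2 were left out as dim. The gene table also lists pseudogenes of S100a10 and S100a11 and S100a11-like genes, and it gives S100A1 as an older name of S100a13. Probe sequences were not used here, so cross-hybridisation between such copies was not tested.

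S100a10 was lower in S.SHR(2) in each deposit block. In the first block the Dahl S rats measured 1101, 1045 and 932 units and the S.SHR(2) rats 349, 606 and 623 units. In the second block they measured 858, 658 and 912 units against 547, 470 and 621 units. In the third block the values were 1710, 1805 and 1475 units against 924, 1363 and 921 units. Within every block each S.SHR(2) rat lay below each Dahl S rat, whereas over all 18 rats the strains overlapped, as they did for every member (0.113% of probe sets did not overlap), because S.SHR(2) rats of the last block reached the level of Dahl S rats of the earlier ones. Over all rats the mean was 1166 ± 402 units (SD, n = 9) in Dahl S and 714 ± 308 units (SD, n = 9) in S.SHR(2), a difference of −0.76 ± 0.225 (SE), or 1.69-fold higher in Dahl S. With deposit block as a covariate the difference was the same and its standard error was 0.110. By block the difference was −0.99 ± 0.28, −0.54 ± 0.18 and −0.75 ± 0.19 (SE, 3 rats per strain), and whether it differed between blocks was not tested.

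Ranges that lay apart in all 3 blocks with S.SHR(2) lower were found for 38 of 18625 probe sets tested (0.204%), and S100a10 was the 1 member among them. With S.SHR(2) higher the share was 0.113%, with no member. No share over all probe sets was computed for ranges apart in only part of the blocks. None was computed either for counts of rats beyond every rat of the other strain. Both are given below as descriptions, and nothing is read from them. By the size of the strain difference without regard to sign, S100a10 ranked 26 among the 18625. S.SHR(2) replicate 1 of the first block gave the lowest S100a10 value of all rats, 349 units, and the lowest S100a11 value, 1043 units. The same array had the highest GAPDH 3′/5′ ratio (2.51, against medians of 1.42 in Dahl S and 1.5 in S.SHR(2)) and the highest beta-actin 3′/5′ ratio (6.83), measures that rise with less intact RNA or cRNA. Its hexokinase 3′/5′ ratio, 4.04, ranked 11 of 18 and lay below the Dahl S median of 4.28. The part of RNA quality in these values was not tested. Without that rat the S100a10 difference was −0.65. It was −0.77 ± 0.151 without the third block.

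**Figure D1:**
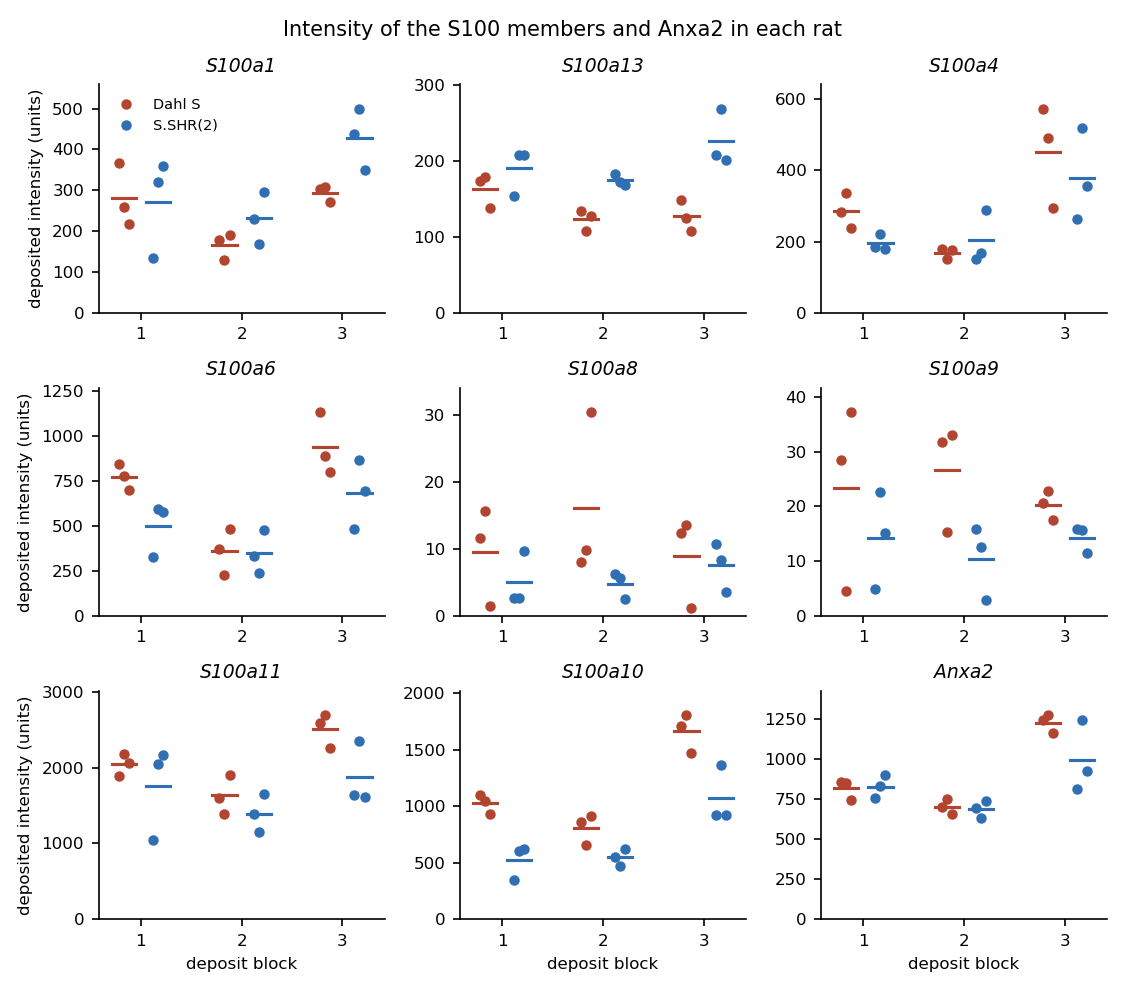
Deposited intensity (vertical axis, arbitrary units, from 0) of each member gene in each rat, by deposit block (horizontal axis), with Dahl S in red, S.SHR(2) in blue and a bar at each mean of 3 rats. The blue points of S100a10 lie below the red ones in every block, those of S100a13 lie above the red ones in the second and the third block, and S100a8 and S100a9 stay at or below 37.2 units.

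Anxa2, the gene of the protein that S100a10 binds, showed no such gap in the first and second blocks. Anxa2 measured 859, 854 and 747 units in Dahl S against 758, 831 and 899 units in S.SHR(2) in the first block, and 701, 749 and 659 units against 696, 635 and 736 units in the second. In the third block it measured 1248, 1274 and 1163 units against 816, 1248 and 924 units. In deposited intensity the strains overlapped in each block, and in the third 2 of the 3 S.SHR(2) rats lay below its Dahl S rats. After normalization the strains lay narrowly apart in the third block, with a lowest Dahl S value of 10.24 and a highest S.SHR(2) value of 10.22 (log2). The difference over all rats was −0.13 ± 0.141 (SE, n = 9 per strain), with block values of 0.00 ± 0.10, −0.02 ± 0.08 and −0.38 ± 0.16. Without the third block it was −0.01 ± 0.0995. The dim second probe set of Anxa2 gave −0.14 ± 0.171 and was under 16 units on 6 arrays.

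S100a11, a partner of annexin A1 that lies next to S100a10 among the genes tested, averaged lower in S.SHR(2) in every block. The strains overlapped in each block in deposited intensity. The first block held 1891, 2179 and 2058 units in Dahl S and 1043, 2046 and 2169 units in S.SHR(2), so that 1 low rat made its difference. The second block held 1603, 1392 and 1908 units against 1388, 1145 and 1650 units. In the third block, 2590, 2692 and 2258 units in Dahl S stood against 1644, 2357 and 1620 units. After normalization the strains lay apart in that block, with a lowest Dahl S value of 11.24 and a highest S.SHR(2) value of 11.15 (log2). Over all rats the difference was −0.37 ± 0.158 (SE), and it was −0.29 without S.SHR(2) replicate 1 and −0.27 ± 0.171 without the third block.

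S100a6 (calcyclin) and S100a4, a marker often used for fibroblasts and migrating cells, lie together in the middle of the cluster and varied more among rats than between strains. S100a6 measured 845, 777 and 701 units in Dahl S against 327, 595 and 581 units in S.SHR(2) in the first block, where the strains lay apart. In the second block it measured 371, 230 and 484 units against 336, 237 and 477 units, which overlapped almost wholly. The third block gave 1135, 890 and 804 units against 483, 867 and 696 units. Its difference over all rats was −0.41 ± 0.272 (SE), smaller than the SDs on the log2 scale within a strain (0.56 in S.SHR(2)). Those SDs include the spread between blocks, and with deposit block as a covariate the standard error was 0.158. S100a4 ranged from 151 units through a median of 283 to 573 units in Dahl S, and from 152 through 220 to 520 units in S.SHR(2). The strains lay apart for S100a4 in the first block only, with S.SHR(2) lower. Its difference was −0.19 ± 0.247 (SE) over all rats, and −0.51, 0.19 and −0.25 by block.

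S100a13, which takes part in the release of acidic fibroblast growth factor from cells, went the other way from S100a10. In the first block its values were 173, 178 and 138 units in Dahl S and 153, 208 and 208 units in S.SHR(2). The second block gave 134, 107 and 127 units against 182, 172 and 168 units. In the third it measured 148, 124 and 108 units against 207, 268 and 201 units. The strains overlapped in the first block and lay apart with S.SHR(2) higher in the second and the third. Over all rats 6 S.SHR(2) rats lay above every Dahl S rat, and 7 Dahl S rats lay below every S.SHR(2) rat. The difference was 0.49 ± 0.107 (SE), or 1.40-fold higher in S.SHR(2), with block values of 0.22 ± 0.17, 0.46 ± 0.10 and 0.79 ± 0.17. S100a13 ranked 69 of 18625 by size. The difference was 0.53 without S.SHR(2) replicate 1 and 0.34 ± 0.118 without the third block.

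S100a1, a regulator of calcium release best known from heart muscle, is the neighbour of S100a13. It ranged from 128 units through 259 to 367 units in Dahl S and from 134 through 321 to 499 units in S.SHR(2). Its difference was 0.27 ± 0.217 (SE), and it was −0.12, 0.43 and 0.50 by block. In the third block all 3 S.SHR(2) rats (437, 499 and 349 units) lay above the 3 Dahl S rats (302, 309 and 271 units), and in the other blocks the strains overlapped.

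The calprotectin genes were near the lower end of the array. S100a8 was under 16 units on 17 of 18 arrays and S100a9 on 10. S100a8 averaged 11.6 ± 8.68 units (SD, n = 9) in Dahl S and 5.78 ± 3.2 units in S.SHR(2), and S100a9 averaged 23.5 ± 10.3 and 13 ± 6.05 units. No difference can be read at this level. Of the 8 neutrophil markers listed, 4 were on the array and none passed the filter, with means of 16.8 ± 6.61 units in Dahl S for Csf3r, 10.9 ± 6.28 units for Mmp8, 4.17 ± 2.75 units for Camp and 3.71 ± 2.11 units for Cxcr2.

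Counted over the 7 measured members, 5 averaged lower and 2 higher in S.SHR(2), against 48.5% lower of all probe sets tested. The median size of the difference without sign was 0.371 over the members and 0.0747 over all 18625 probe sets. Without covariates, no member was called at an adjusted p under 0.05 (limma, Benjamini-Hochberg over all probe sets), where 0.123% of all probe sets were called, and 3 members, S100a10, S100a11 and S100a13, had an unadjusted p under 0.05, where 4.02% did. With deposit block as a covariate, 2 members were called, S100a10 and S100a13, beside 0.494% of all probe sets. The same 2 were called with 1 or 3 residual components as covariates (beside 0.344% and 0.94% of all) and with block and array weights together (0.73%), and S100a13 alone with array weights (0.22%). The block fit left the differences unchanged, with standard errors of 0.118 for S100a11, 0.096 for S100a13, 0.157 for S100a1, 0.146 for S100a4 and 0.075 for Anxa2. In that fit 4 members, S100a6, S100a10, S100a11 and S100a13, had an unadjusted p under 0.05 (limma), where 9.27% of all probe sets did. Because the genes were picked on this contrast, these counts restate the choice and nothing is read from them. By size alone, S100a13 came next after S100a10, in the opposite direction, and Anxa2 had the smallest difference of the 7.

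Since S100a10 and S100a13 differed in opposite directions, the log2 ratio of their signals within an array was taken. It shifted by −1.25 ± 0.22 (SE) in S.SHR(2), a size that follows from choosing this pair after its values were seen. In the same way, the ratio of S100a10 to Anxa2 shifted by −0.63 ± 0.15, with 8 Dahl S rats above every S.SHR(2) rat, and the ratio of S100a10 to S100a11 by −0.39 ± 0.15, with the strains overlapping. These shifts describe unequal strain differences within an array and were not tested.

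**Figure D2:**
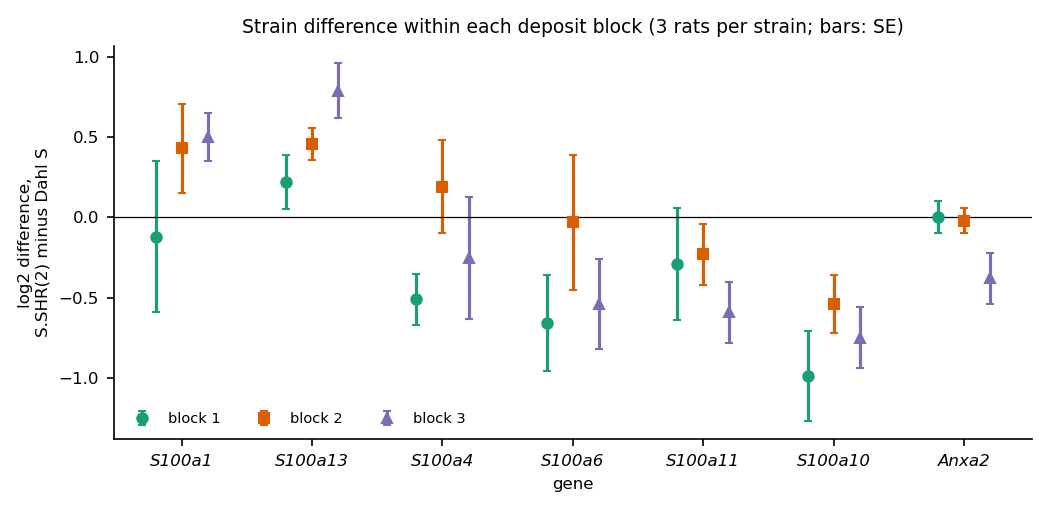
Strain difference (vertical axis, log2, S.SHR(2) minus Dahl S) of the 7 measured members (horizontal axis) within each deposit block, with 3 rats per strain and bars for the SE. S100a6, S100a10 and S100a11 lie below 0 in all 3 blocks (S100a6 at −0.03 in the second) and S100a13 above 0 in all 3, while S100a1, S100a4 and Anxa2 change side or sit at 0 in at least 1 block.

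In the gene order of the GRCr8 assembly, S100a1 and S100a13 stand at one end of the cluster, S100a4 and S100a6 in the middle, and S100a11 and S100a10 at the other end, with 3 tested genes between S100a6 and S100a11. The members with a positive difference were the neighbours S100a1 and S100a13, and the members further along had negative ones. This order did not extend to all genes of the stretch, since Sprr1a, between S100a6 and S100a11, gave 0.40 ± 0.2 (SE; limma adjusted p = 1.0). The other tested genes between S100a6 and S100a11 were negative, LOC102549828 at −0.19 ± 0.179 and Lce3b at −0.16 ± 0.135 (SE). Before S100a1, Npr1, Ilf2 and Snapin gave 0.21 ± 0.138, 0.04 ± 0.218 and 0.15 ± 0.0544 (SE). The S100 genes between S100a13 and S100a4, S100a14, S100a16 and S100a3, gave 0.08 ± 0.123, 0.02 ± 0.103 and 0.04 ± 0.142 (SE). From the 3 tested genes before S100a1 to the 3 after S100a10 there were 12 tested genes that are not members. None of the 12 was called (limma, adjusted over all probe sets), and 3 had an unadjusted p under 0.05, where 4.02% of all probe sets did. Of the 12, 2 averaged lower in S.SHR(2), against 48.5% of all probe sets tested. The 12 differences ran from −0.19 to 0.58. The highest was that of Snx27, a sorting nexin of endosomes that is the third tested gene after S100a10, at 0.58 ± 0.123 (SE; limma adjusted p = 0.073). Between S100a10 and Snx27, Them4 gave 0.24 ± 0.0908 and mrpl9 0.07 ± 0.0713 (limma adjusted p = 1.0 each), so the negative values of S100a11 and S100a10 were followed by positive ones. Anxa2 is on chromosome 8, outside the segment for which the congenic is named.

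**Figure D3:**
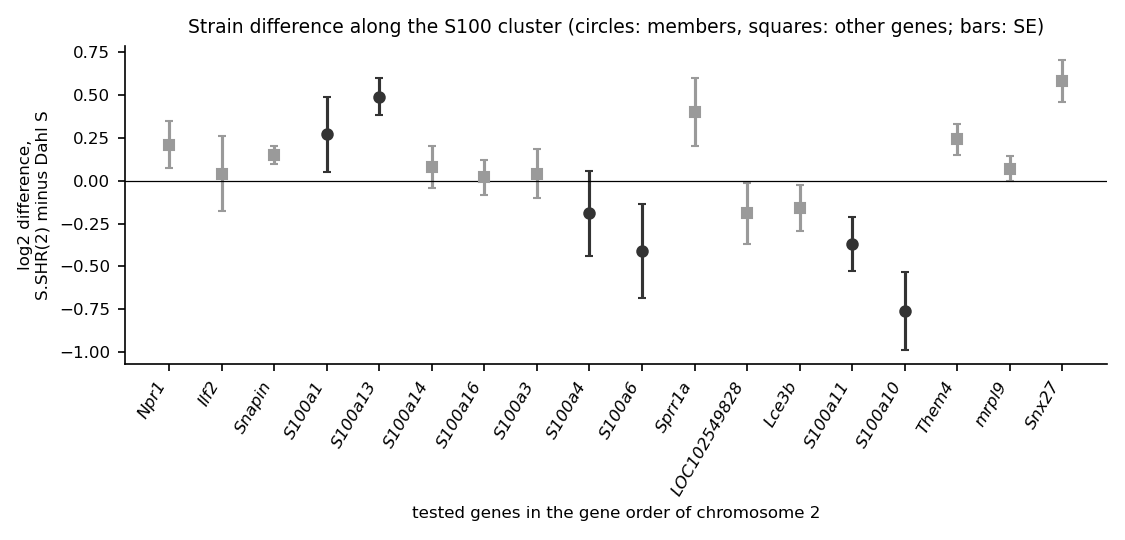
Strain difference (vertical axis, log2, S.SHR(2) minus Dahl S, bars for the SE) of tested genes in their order along chromosome 2 (horizontal axis, evenly spaced and not to scale), with members as circles and other genes as squares. S100a13 stands at 0.49, S100a14, S100a16 and S100a3 at 0.08, 0.02 and 0.04, and S100a10 at −0.76. Between S100a6 and S100a11, Sprr1a stands at 0.40, LOC102549828 at −0.19 and Lce3b at −0.16, and Snx27 at the right stands at 0.58.

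The stretch before the transcription start is shown for 4 members to let a reader set genes of unlike strain difference side by side. RefSeq sequences of the GRCr8 build were at hand for 6 of the 9 members, among which S100a10, S100a1 and S100a8 were not. Each line gives the 200 bases before the start site, 5′ to 3′ on the gene's own strand, which is plus for all 4. S100a11 and S100a6 had strain differences of the same sign as S100a10, S100a13 had the opposite sign, and Anxa2 had the smallest difference. The positions are chr2:181874932-181875131 for S100a11, chr2:178398337-178398536 for S100a6, chr2:178296820-178297019 for S100a13 and chr8:78986052-78986251 for Anxa2. Capitals mark matches, on either strand, to 4 promoter motifs. The TATA box was searched as TATAAA and the GC box as GGGCGG. The CCAAT box was searched by the letters of its name, and the AP-1 element, the site of Fos and Jun dimers, as TGANTCA.
S100a11: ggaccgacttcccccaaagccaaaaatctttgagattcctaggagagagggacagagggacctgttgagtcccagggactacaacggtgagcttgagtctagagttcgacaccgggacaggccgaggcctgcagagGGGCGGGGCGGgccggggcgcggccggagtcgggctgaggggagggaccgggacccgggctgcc
S100a6: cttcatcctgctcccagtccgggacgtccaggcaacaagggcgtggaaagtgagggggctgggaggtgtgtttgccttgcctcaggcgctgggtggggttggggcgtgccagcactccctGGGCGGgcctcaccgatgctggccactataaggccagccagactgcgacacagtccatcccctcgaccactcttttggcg
S100a13: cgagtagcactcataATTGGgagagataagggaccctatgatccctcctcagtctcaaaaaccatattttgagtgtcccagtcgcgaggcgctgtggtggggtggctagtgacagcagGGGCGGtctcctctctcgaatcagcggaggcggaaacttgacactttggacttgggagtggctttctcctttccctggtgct
Anxa2: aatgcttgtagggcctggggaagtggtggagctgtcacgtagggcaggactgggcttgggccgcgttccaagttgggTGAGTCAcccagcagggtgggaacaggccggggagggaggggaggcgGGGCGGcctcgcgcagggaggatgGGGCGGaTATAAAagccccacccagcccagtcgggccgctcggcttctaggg
S100a11 holds 2 overlapping GC boxes, the first of them 64 bases before the start, and S100a6 holds 1 GC box at 80 bases. S100a13 has a GC box at 82 bases and a reversed CCAAT box at 185 bases. Anxa2 alone of the 4 has a TATA box, 45 bases before the start, and an AP-1 match at 123 bases, besides 2 GC boxes. A TATA box is not particular to Anxa2 among the members. Of those not shown, S100a4 has one 31 bases and S100a9 one 42 bases before the start. In windows of 300 bases around the starts of 33469 rat promoters, TATAAA was found in 14.2%, GGGCGG in 33.1%, CCAAT in 37.5% and TGANTCA in 7.33%. Matches to the GC and CCAAT boxes are thus common, and the other 2 motifs are less so. These windows are longer than the 200 bases printed. The matches are letters in a window, not shown sites, and these data hold no binding measurement.

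A larger share of the variance lay between deposit blocks than between strains for 6 of the 7 measured members. A split into 3 blocks takes up more variance on average than a split into 2 strains even without any effect. No allowance for this was made, so the 2 shares do not rank block against strain. The share of the variance over 18 rats that lay between blocks was 72.9% for Anxa2, 62.6% for S100a4, 58.1% for S100a6, 48.8% for S100a10, 42.1% for S100a1 and 32.4% for S100a11. The share between strains was 4.55%, 2.90%, 10.2%, 36.4%, 7.42% and 22.2% for the same genes. S100a13 stood the other way round, with 8.37% between blocks and 57.2% between strains. In Dahl S, the third block exceeded the second 2.15-fold for S100a10, 2.67-fold for S100a6, 2.43-fold for S100a4 and 1.77-fold for Anxa2, and it was 0.996-fold of it for S100a13. In S.SHR(2) the corresponding folds were 1.85, 1.88, 1.78, 1.38 and 1.25. These are descriptions of 3 rats per strain and block, and what separates the blocks is not labelled. The Dahl S rat labelled as 4 weeks old is in the first block and the one labelled as 12 weeks old in the second, and no age was read from this for the other rats. The hexokinase 3′/5′ ratio had medians of 3.8, 3.67 and 9.03 in the 3 blocks, whereas the beta-actin ratio had 3.48, 3.69 and 2.63, and their part in the block differences was not tested.

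Marker lists moved with the blocks as well. The score of 7 tubular injury genes (the mean of their log2 values, centred on all rats) averaged −0.80, −0.06 and 0.86 in the first, the second and the third block, and that of 5 macrophage genes −0.44, 0.09 and 0.35. Between strains, 6 of the 7 injury genes averaged lower in S.SHR(2), with scores from −0.87 to 1.38 in Dahl S and from −1.12 to 0.93 in S.SHR(2). Osteopontin, encoded by Spp1, was the closest to a call among them, at −0.53 ± 0.125 (SE) with deposit block as a covariate (limma adjusted p = 0.056). All 4 fibroblast genes averaged lower (median −0.26, scores from −0.30 to 0.41 in Dahl S and from −0.37 to 0.21 in S.SHR(2)), and so did all 5 macrophage genes tested (median −0.19, from −0.54 to 0.56 and from −0.76 to 0.64). The 4 proximal tubule genes had a median difference of 0.00. No gene of these lists was called without covariates or with the block (limma), and 1, the fibroblast gene Dcn, had an unadjusted p under 0.05 without covariates, against 8 with the block, a fit in which 9.27% of all probe sets had one. Of the 7 injury genes 5 were among the 8, with Spp1, Clu, Vim and Cp lower and Krt19 higher in S.SHR(2). The rest were 2 of the 4 fibroblast genes, Dcn and Lum, and 1 of the 5 macrophage genes, C1qb. The part of these cell types and of injury in the member values was not tested.

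Rats that were high for 1 member tended to be high for the others, a measure that does not use the strain difference. Within each strain, 31 of 42 pairs of members passed an exact permutation test of Pearson's r at an adjusted p under 0.05 over 9 rats (13 of 21 pairs in Dahl S and 18 of 21 in S.SHR(2)). Because the third block was high for most members, the relation was also computed from deviations around the mean of each strain and block, over 18 rats with permutation among the 3 rats of a cell, a version chosen after the data were seen. All 21 pairs were then positive, and 19 passed by Pearson's r and 17 by Spearman's rho after adjustment over the 21 pairs. Leaving out S.SHR(2) replicate 1, all 21 remained positive and 11 passed. The share of passing pairs among all genes was not computed, so these counts are not read as particular to the members. Within strain and block, over all 18 rats, 10482 genes were compared with S100a10. The members ranked there from 7 (S100a11) to 1034 (S100a4), and both of these pairs passed.

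Of these pairs, S100a10 and its neighbour S100a11 had the highest correlation, with r = 0.93 (exact permutation p = 0.0013, adjusted 0.0068) and rho = 0.92 (p = 0.00088, adjusted 0.0046). It was 0.88 without the 2 rats farthest from the median and 0.85 without S.SHR(2) replicate 1. S100a10 correlated with S100a1 at r = 0.90 (rho = 0.88; exact permutation p = 0.00015, adjusted 0.0016) and with S100a6 at r = 0.89 (rho = 0.89; p = 8.6e-05, adjusted 0.0016, exact permutation). With S100a13, the member of opposite strain difference, r was 0.84 (rho = 0.73; exact permutation p = 0.0027, adjusted 0.011), so rats of 1 strain and block that were high for S100a10 were high for S100a13 also. With Anxa2, r was 0.67 (rho = 0.62; exact permutation p = 0.015, adjusted 0.026), and without S.SHR(2) replicate 1 it was 0.65 and no longer passed (adjusted exact permutation p = 0.076). Taken by strain, the deviations from block means gave r = 0.11 in Dahl S and 0.81 in S.SHR(2) for this pair. Pairs of Anxa2 with members ran from −0.23 (S100a11) to 0.53 (S100a4) in Dahl S and from 0.60 (S100a1) to 0.83 (S100a6) in S.SHR(2). Whether the strains differed in this was not tested. The weakest pair, S100a1 and S100a4, had r = 0.37 (rho = 0.45; exact permutation p = 0.090, adjusted 0.090).

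**Figure D4:**
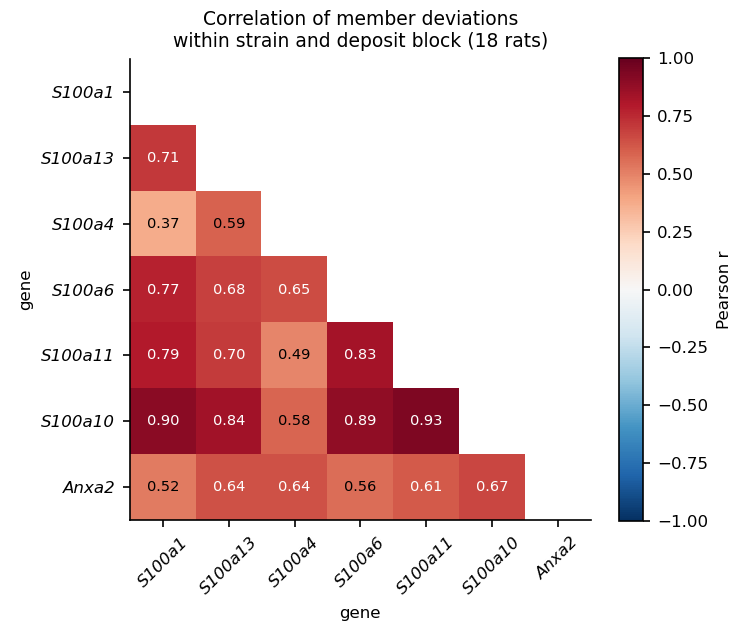
Pearson's r between members (both axes list the 7 measured genes) over 18 rats, from deviations around the mean of each strain and deposit block, with the color scale from −1 to 1. All 21 cells are positive, from 0.37 for S100a1 with S100a4 to 0.93 for S100a10 with S100a11, and the row of Anxa2 runs from 0.52 to 0.67.

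Genes outside the cluster followed S100a10 more closely than any member did. Over the 18 deviations from strain means, the genes most like S100a10 among 10482 compared were Tmsb4x, which encodes the actin-binding thymosin beta-4 (r = 0.984), Npc2, a lysosomal cholesterol carrier (0.971), Tmem176b (0.967), Cd24 (0.963) and Psma2, a proteasome subunit (0.961). Among the members, S100a4 came nearest by this measure, at r = 0.877 and rank 126, followed by S100a1 (0.857), Anxa2 (0.852, rank 221), S100a6 (0.829) and S100a11 (0.821, rank 351), and S100a13 was far off (0.458, rank 2492). With the block means removed too, S100a11 ranked 7 (r = 0.929), S100a1 ranked 12, S100a6 ranked 30, S100a13 ranked 101, Anxa2 ranked 678 and S100a4 came last of the members (r = 0.581, rank 1034), and Tmsb4x was again first (0.961). The genes most like Anxa2 over deviations from strain means were Tpm4, a tropomyosin (0.939), Rack1 (0.930), Ltbp4 and Mgp, both of the extracellular matrix (0.926 each), and Tspan8 (0.925), and S100a10 ranked 40 for Anxa2. These correlations share arrays and, in the first version, the blocks, and they are given without a test.

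The members were also set against 9 marker lists of kidney cell types and injury. Within single strains none of 126 pairs passed by r or by rho (exact permutation, adjusted over the pairs), and 26 had an unadjusted p of r under 0.05. In the version within strain and block, 13 of 63 pairs passed by r and 9 by rho, and 2 passed by r without S.SHR(2) replicate 1. Both of those were negative and concerned the podocyte list (Nphs1, Podxl and Synpo). The score of that list correlated with S100a1 at r = −0.94 (rho = −0.90; exact permutation p = 0.00015, adjusted 0.0095) and with S100a10 at r = −0.92 (rho = −0.88; exact permutation p = 0.00043, adjusted 0.014). Without that rat the values were −0.87 and −0.83 (both exact permutation, adjusted p = 0.041). Anxa2 correlated with the tubular injury score at r = 0.81 (rho = 0.73; exact permutation p = 0.0071, adjusted 0.041), and without the rat r was 0.78 and did not pass (exact permutation, adjusted p = 0.12). Over all rats, the podocyte score was negative with every measured member in this version, from −0.43 for S100a4 to −0.94 for S100a1, and −0.74 for S100a13. Its sign was thus not particular to S100a1 and S100a10. Pairs with the vascular smooth muscle, intercalated cell and fibroblast lists were also among the 13. The podocyte score itself differed little between strains, with a median difference of 0.05 over 3 genes and no call.

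The other genes of the pathway showed no strain difference that passed. Of 5 other S100 genes tested (S100a3, S100a14, S100a16, S100g and S100pbp, the last encoding an S100-binding protein), none was called without covariates or with the block (limma), and none had an unadjusted p under 0.05 in either fit. Their median difference was 0.04, against 0.00 over all probe sets. S100g, the calbindin of calcium-transporting epithelia, measured 102 ± 43.4 units (SD, n = 9) in Dahl S and 117 ± 55.1 units in S.SHR(2). Among 8 other annexins the median was −0.09 and none was called. Anxa1, the partner of S100a11, was at −0.23 ± 0.157 (SE) and Anxa5 at −0.19 ± 0.143 (both limma adjusted p = 1.0), and these 2 alone had an unadjusted p under 0.05, in the fit with the block. By block Anxa1 was at 0.07, −0.18 and −0.57 and Anxa5 at −0.03, −0.11 and −0.43. The score of the 8 annexins shifted between strains by 0.01, −0.04 and −0.18.

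Of the plasminogen system, which the S100a10 complex localizes, 7 of 13 listed genes were tested, with a median of 0.04 and no call, and none had an unadjusted p under 0.05 in either limma fit. The activators Plat and Plau measured 520 ± 64 and 2728 ± 763 units (SD, n = 9) in Dahl S against 486 ± 35.3 and 2620 ± 907 units in S.SHR(2). Plg and Plaur were too dim to test. Of 8 tested binding partners of the complex the median was 0.03 with no call. The calcium channels Trpv5 and Trpv6 gave 0.09 ± 0.0992 and −0.14 ± 0.174 (SE, limma adjusted p = 1.0 each). Of 7 receptors and signalling genes of extracellular S100 proteins, 6 averaged lower and none was called (median −0.06), and Ager, the receptor for advanced glycation end products, was too dim to test. No gene of the last 2 lists had an unadjusted p under 0.05 without covariates, and 1, Pctp, had with the block.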

How the data were processed

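One value per probe set and array was used, the intensity the authors deposited on a linear scale. The sources used here do not name the software. The mean after trimming 2% at each end was 150.046 to 150.054 on every array, as read from the values. Precision is limited by the number of arrays. Of 31099 probe sets, 57 controls were left out. The rest were transformed as log2(intensity + 16) and quantile normalized, and the 40% with the lowest means (under 5.48) were left out, which left 18625. Strains were compared by limma 3.58.1 under R 4.3.3 (lmFit, then eBayes with an intensity trend, no covariates), adjusted by Benjamini-Hochberg over all of them. The fit was tested on simulated data.

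Genes were named from the platform annotation and the GRCr8 gene table (20764 of 20832 probe sets naming 1 gene matched). The brightest probe set stood for a gene. Named were all members, other S100 genes and annexins, listed genes marked for naming or called, the 5 genes most like S100a10 and Anxa2, and 3 neighbours on each side. Other genes named were chosen after their values were seen. Members and lists were chosen with earlier results of these data known.

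Correlations used exact permutation, over 362880 pairings of 9 rats within a strain, or 46656 permutations within cells of 3 rats. Replicate numbers follow deposit order and pair nothing. Alternatives were pseudocounts, filters, normalization, array weights, deposit block, residual components and each rat left out. Fits without the third block, with block and weights together, and correlations within strain and block, with and without S.SHR(2) replicate 1, were added after the data were seen. Python 3.11.15 and matplotlib 3.10.9 were used.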

Additional observations from a re-analysis of the deposited data

How the results depend on the processing

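No member changed the sign of its strain difference in any of its 30 alternatives. S100a10 ran from −0.88 to −0.65, S100a13 from 0.34 to 0.54, S100a11 from −0.44 to −0.27, S100a6 from −0.59 to −0.29, S100a4 from −0.32 to −0.06, S100a1 from 0.16 to 0.40 and Anxa2 from −0.20 to −0.01. The members called, 0 without covariates, numbered 1 with array weights (S100a13) and 2 with deposit block, 1 residual component, 3 residual components, or block and weights together (S100a10 and S100a13 each time). With each rat left out in turn they numbered 0 to 1, the 1 being S100a13 without Dahl S replicate 1 or 2. Because the genes were picked on this contrast, these counts restate the choice, and nothing is read from them. Over all probe sets, 23 calls became 41 with array weights, 92 with the block, 64 and 175 with 1 and 3 components, 136 with block and weights, and 16 to 28 with each rat left out. Of member pairs, 31 passed within strains, 8 with deviations within blocks, where permuting the 3 rats of a block cannot give a p under 0.0046, 13 without the 2 farthest rats, 19 with both strains within strain and block, 11 of these without S.SHR(2) replicate 1, and 21 to 33 with each rat left out. Of member and list pairs, 0 became 2 with a pseudocount of 1, 2 with values as deposited, 1 with arrays centred on medians, 13 with both strains within strain and block, 2 of these without S.SHR(2) replicate 1, and 0 to 2 with each rat left out. The cause of these changes was not tested. Signal limits S100a8, S100a9 and the second Anxa2 probe set, which lay near 16 units. No paired analysis was possible because the labels give no replicate numbers.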
